A study of Mus musculus with 6 samples.

Results

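The transcripts of 10 genes of the histone ubiquitin pathway that answers DNA double-strand breaks were followed in mouse spermatogenic cells with and without Rnf8: Rnf8, Rnf168, Mdc1, Ube2n, Uimc1, Brca1, Bard1, Abraxas1, Trp53bp1 and Herc2. They were chosen by name, 10 of the 19939 genes that the array annotation gave a value, and all 10 were among the 17926 genes tested, since each reached log2 6 on at least 1 array. RNA was measured on Affymetrix MoGene 1.0 ST arrays, which give 1 value per transcript cluster, a set of probes placed along a transcript. For each gene the cluster of highest mean over the 6 arrays was used. The only cluster of Rnf8 also lists Gm28043, a RefSeq gene model that begins at the same base as Rnf8 and ends beyond it.

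All arrays came from the C57BL/6 background. The groups were wild-type (WT) pachytene spermatocytes with 2 arrays, Rnf8 knockout (KO, labelled RNF8-KO) pachytene spermatocytes with 2 arrays, WT round spermatids with 1 array and KO round spermatids with 1 array. Pachytene spermatocytes are cells in meiotic prophase, and round spermatids are the haploid cells that follow. Cells of 3 to 4 males were separated by sedimentation through albumin at unit gravity, with a stated purity above 95%. The sources used here do not give the age of the mice, the Rnf8 allele or how much of the gene it removes. Nothing in the labels ties arrays of a group to separate males or cell preparations, and the p-values therefore reflect the spread among these arrays, which may be technical. In such fractions fewer cells of a type and less RNA per cell cannot be told apart.

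At a break, the kinase ATM phosphorylates histone H2AX, MDC1 binds that mark, and the ubiquitin ligase RNF8 is recruited to MDC1. RNF8 works with the conjugating enzyme UBE2N, a pairing that HERC2 promotes, and the chains it builds bring in a further ligase, RNF168, which ubiquitinates histone H2A. RAP80, the product of Uimc1, reads the chains and, through ABRAXAS1, holds the ligase pair BRCA1 and BARD1 in the BRCA1-A complex, while 53BP1, the product of Trp53bp1, reads the H2A mark. In male meiosis the same proteins act on the unpaired X and Y chromosomes, where MDC1 spreads H2AX phosphorylation and RNF8 ubiquitinates H2A.

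The start-site windows of Rnf8, Mdc1, Bard1 and Brca1 are shown because these 4 genes passed the test between cell types described next, 3 of them lower and 1 higher in round spermatids. Each window runs from 250 bases before to 50 bases after the RefSeq start (build GRCm38.p6) on the gene's own strand, and capitals mark CCAAT (the NF-Y box), TGACGT (the CREB and CREM core) and CCGGAA (the ETS core) on either strand.
Rnf8, chr17:29614539-29614838, plus strand: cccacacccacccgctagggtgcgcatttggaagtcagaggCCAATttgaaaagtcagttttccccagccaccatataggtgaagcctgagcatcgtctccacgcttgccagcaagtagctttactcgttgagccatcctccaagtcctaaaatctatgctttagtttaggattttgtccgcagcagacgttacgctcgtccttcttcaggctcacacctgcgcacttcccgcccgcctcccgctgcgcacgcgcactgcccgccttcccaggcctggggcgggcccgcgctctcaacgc
Mdc1, chr17:35841248-35841547, plus strand: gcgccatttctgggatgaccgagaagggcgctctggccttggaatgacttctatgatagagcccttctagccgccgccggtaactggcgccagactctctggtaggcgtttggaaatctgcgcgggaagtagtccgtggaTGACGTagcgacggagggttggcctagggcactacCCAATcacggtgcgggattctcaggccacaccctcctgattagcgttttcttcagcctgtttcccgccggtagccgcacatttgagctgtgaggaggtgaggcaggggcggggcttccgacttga
Bard1, chr1:71102923-71103222, minus strand: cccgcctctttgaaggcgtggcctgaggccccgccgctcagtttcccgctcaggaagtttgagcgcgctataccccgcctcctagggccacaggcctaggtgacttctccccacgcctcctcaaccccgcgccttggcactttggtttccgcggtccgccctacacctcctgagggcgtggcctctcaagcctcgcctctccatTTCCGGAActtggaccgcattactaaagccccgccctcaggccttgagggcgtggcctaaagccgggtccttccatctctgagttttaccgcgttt
Brca1, chr11:101551906-101552205, minus strand: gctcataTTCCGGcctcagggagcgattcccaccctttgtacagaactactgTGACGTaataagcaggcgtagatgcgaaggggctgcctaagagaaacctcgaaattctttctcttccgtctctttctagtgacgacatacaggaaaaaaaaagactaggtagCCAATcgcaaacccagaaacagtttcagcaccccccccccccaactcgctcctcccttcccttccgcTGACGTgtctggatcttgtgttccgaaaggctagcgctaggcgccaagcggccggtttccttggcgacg

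Windows were found for all 10 genes, with 11 windows because Herc2 has 2. CCAAT was in the windows of 5 genes (Rnf8, Mdc1, Uimc1, Brca1 and Herc2), against 37.4% of all 32851 windows in the table. TGACGT was in those of 3 genes (Mdc1, Brca1 and Trp53bp1), against 7.51% of all windows, and the CCGGAA core was in those of 4 (Rnf168, Ube2n, Brca1 and Bard1), against 14.9%. The TGACGT letters thus stood both before Mdc1, which was lower in round spermatids, and before Brca1, which was higher. GGGCGG, the GC box, was in 10 of the 11 windows, those of 9 genes, all but Brca1, against 35.7% of all windows. The 11 windows held 46.3% (Rnf168) to 72.7% (Ube2n) of G and C, against a median of 52.7% over all windows. The part of that content in these counts was not tested. AACGG, the MYB core, was in that of Rnf168 alone, against 17.4%, and TTTGAA, the cell-cycle element CHR, in those of Rnf8, Uimc1 and Bard1, against 17.9%. Some matches overlap, such as CCAAT and TTTGAA before Rnf8, CCAAT and GGGCGG before Herc2, and both strands of CCGGAA before Bard1.

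Array medians lay between 197.3 and 217.7 on the linear scale, and the lower and upper quartiles of log2 intensity lay between 6.15 and 6.28 and between 9.43 and 9.58. Of 17 pachytene markers tested, 11 were lower in round spermatids and 1 (Syce2) was higher, and of 15 round spermatid markers 12 were higher. The spermatid markers Prm1, at 12.85 to 13.18, and Prm2, at 13.25 to 13.44, were already high on the pachytene arrays, so these markers do not separate the fractions fully. Markers of other testis cells moved with cell type: 6 of 8 Leydig and 9 of 16 Sertoli markers were lower in round spermatids and none was higher. The summed intensity of the Leydig markers was 5276 to 7513 on pachytene arrays, with 1557 for WT and 1816 for KO round spermatids, and that of the Sertoli markers 8541 to 10578, 4994 and 5874. Of 10 macrophage and blood markers 4 were higher, of 12 peritubular and vessel markers 1 (Dcn, by 2.86) was higher, and of 14 spermatogonial markers 1 was higher and 1 lower. The part of these other cells in the results that follow was not tested.

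Differences below are on the log2 scale. The targeted gene, Rnf8, checks the labels. The log2 intensity of its cluster was 8.51 and 8.86 on the WT pachytene arrays and 7.86 and 8.05 on the KO pachytene arrays. The WT round spermatid array read 7.78 and the KO one 7.50. KO lay below WT in both cell types without overlap in pachytene, but a signal remained in KO, and the KO pachytene values were above the WT round spermatid value. The difference in pachytene was -0.74 (SE 0.18, 2 arrays per genotype, 95% interval -1.15 to -0.32), or 1.67-fold, and it did not pass limma with Benjamini-Hochberg adjustment over all genes (adjusted p = 1.0). Over both cell types it was -0.59 (SE 0.15, adjusted p = 0.599, limma), and Rnf8 was the 1 member of 10 with an unadjusted p under 0.05 there, against 5.47% of all tested genes and 0% past the adjusted threshold. Pachytene arrays without overlap between genotypes and a round spermatid difference in the same direction were found in 18.0% of tested genes, with KO lower in 7.10%, and in Rnf8 alone among the 10. The position of the probes relative to the deleted part was not known here, so the cluster is a limited check.

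**Figure D1:**
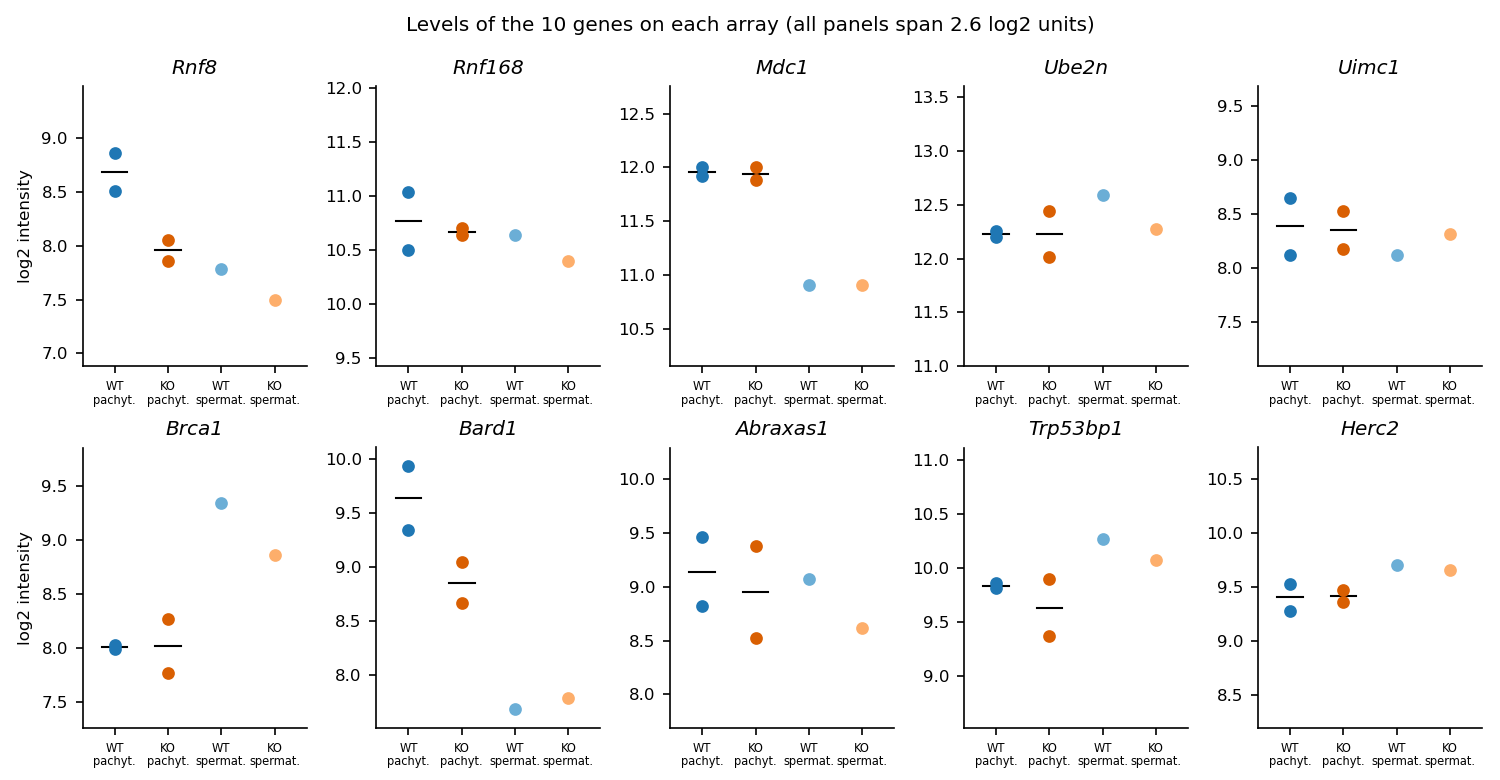
Log2 intensity of the 10 genes on each of the 6 arrays, with a point per array, a line at the mean where a group has 2 arrays, and the same span of log2 units in every panel. Rnf8, Mdc1 and Bard1 sit lower and Brca1 sits higher on both round spermatid arrays than on any pachytene array.

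Between the cell types, 4 of the 10 genes passed the test, and they moved apart: Bard1, Mdc1 and Rnf8 fell in round spermatids and Brca1 rose. The test was limma over all 6 arrays with genotype as a term, at an adjusted p of 0.05. It called 34.9% of all tested genes (17.8% higher and 17.1% lower), so 4 of 10 is near the background. At an unadjusted p under 0.05 there were 6 members, with Trp53bp1 and Herc2 added, against 42.6% of all tested genes. Each genotype alone has 1 round spermatid array, which is assumed to vary like the pachytene pairs, the only source of spread in such a fit. Under that assumption the same 4 passed within WT, against 20.0% of all tested genes, and Mdc1 and Bard1 passed within KO, against 15.5%. A fit between cell types without 1 round spermatid array gives the difference within the other genotype. Here and below it rests on the same assumption and is no separate check. Median differences were -0.18 for the 10 genes and -0.06 for all tested genes. On 6 of the 10 genes the round spermatid arrays lay outside the range of the pachytene arrays, against 50.5% of all tested genes. They were above it for 3 members (24.1% of all tested genes) and below it for 3 (26.4%).

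Mdc1, the scaffold that binds phosphorylated H2AX and docks RNF8, was at 11.92 and 12.00 on the WT pachytene arrays, 12.00 and 11.88 on the KO pachytene arrays, and 10.91 on each round spermatid array. The 4 pachytene arrays lay within 0.12 of each other, and both round spermatid arrays lay about 1 log2 unit below them. The fall was 1.04 (SE 0.10, 2 against 4 arrays, adjusted p = 2.95e-04, limma), or 2.06-fold, and it was -1.05 within WT and -1.04 within KO. No other member had so small a spread among the pachytene arrays (SD 0.06, n = 4).

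Bard1, the partner that BRCA1 needs for ligase activity, was at 9.34 and 9.93 on the WT pachytene arrays and 9.04 and 8.66 on the KO pachytene arrays. The round spermatid arrays read 7.68 for WT and 7.78 for KO. The cell types did not overlap, and the pachytene arrays were ordered with both WT arrays above both KO arrays. The fall was 1.51 (SE 0.24, adjusted p = 0.00204, limma), or 2.85-fold, the widest among the 10 genes. Within WT it was -1.95 and within KO -1.07, each with 1 round spermatid array against 2 pachytene arrays.

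Brca1, the other subunit of that ligase, went the opposite way. It was at 8.03 and 7.99 on the WT pachytene arrays, 8.27 and 7.77 on the KO pachytene arrays, and 9.35 and 8.86 in WT and KO round spermatids. Both round spermatid arrays lay above all 4 pachytene arrays. The rise was 1.09 (SE 0.17, adjusted p = 0.0019, limma), or 2.13-fold, with 1.34 within WT and 0.84 within KO. Leaving out the WT round spermatid array gives the same 0.84 as within KO, and there the call was lost. The transcripts of the 2 partners thus moved in opposite directions between the same cell types.

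Rnf8 itself was 0.68 lower in round spermatids (SE 0.16, adjusted p = 0.0108, limma). Within WT, with 1 round spermatid array against 2 pachytene arrays, the difference was -0.91, or 1.87-fold. Within KO the difference was -0.45, the same value as without the WT round spermatid array, and there the call was lost. Rnf168, the second ligase, did not pass. It was at 10.50 and 11.04 on the WT pachytene, 10.64 and 10.70 on the KO pachytene, and 10.64 and 10.40 on the WT and KO round spermatid arrays. These ranges overlap, and the difference was -0.20 (95% interval -0.57 to 0.17).

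The enzymes and helpers around RNF8 differed less. Ube2n, the conjugating enzyme, read 12.20 and 12.26 for WT pachytene, 12.44 and 12.01 for KO pachytene, and 12.59 and 12.27 for WT and KO round spermatids. The KO round spermatid array fell inside the pachytene range, and the difference between cell types was 0.20 (95% interval -0.14 to 0.55, adjusted p = 0.357, limma). Herc2, the giant ligase that helps RNF8 bind UBE2N, read 9.53 and 9.28 for WT pachytene, 9.47 and 9.36 for KO pachytene, and 9.71 and 9.66 for WT and KO round spermatids. Its round spermatid arrays lay just above all pachytene arrays, with a difference of 0.27 (SE 0.12, adjusted p = 0.115). Neither gene passed in a setting that kept all arrays. With each array left out, the difference ran from 0.05 to 0.36 for Ube2n and from 0.21 to 0.32 for Herc2. Without KO pachytene array 1 it was 0.32 for Ube2n and 0.30 for Herc2.

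None of the readers of the ubiquitin marks passed. Trp53bp1 read 9.82 and 9.86 for WT pachytene, 9.90 and 9.37 for KO pachytene, and 10.27 and 10.08 for WT and KO round spermatids. The groups did not overlap, and the difference of 0.44 (SE 0.15) missed the threshold at an adjusted p of 0.0611 in limma. With all arrays kept, it passed with a second quantile normalization (adjusted p = 0.0225, limma) and with the replicate number as a block (0.56, adjusted p = 0.0356). Those numbers were not taken to pair the arrays. It did not pass with 4 group means (adjusted p = 0.106), other filters (0.0682 and 0.0558), cluster means (0.0603) or a trended and robust prior (0.0529). With each array left out, the Trp53bp1 difference ran from 0.32 to 0.55. Uimc1, which encodes RAP80, read 8.12 and 8.65 for WT pachytene, 8.53 and 8.17 for KO pachytene, and 8.12 and 8.31 for WT and KO round spermatids. These groups overlapped, with a difference of -0.15 (95% interval -0.56 to 0.26). Abraxas1, the scaffold of the BRCA1-A complex, was at 8.82 and 9.46 on the WT pachytene, 9.38 and 8.52 on the KO pachytene, and 9.07 and 8.62 on the round spermatid arrays. Its replicate arrays differed by 0.64 and 0.86, more than any difference between its groups, and the interval for the cell types ran from -0.80 to 0.40.

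**Figure D2:**
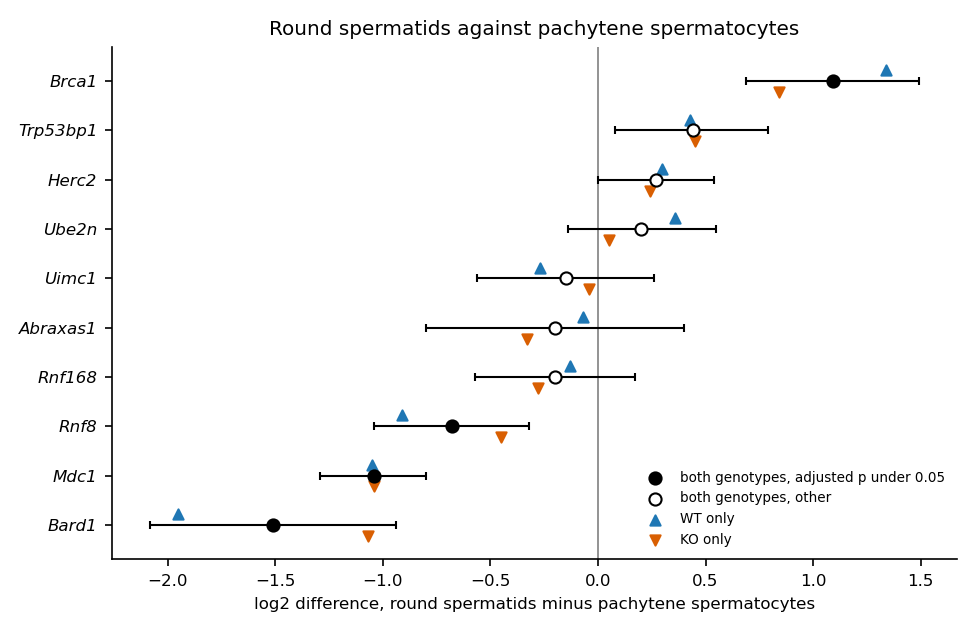
Log2 difference between round spermatids and pachytene spermatocytes for each gene, over both genotypes with its 95% interval (circles, filled where the adjusted p is under 0.05) and within WT and KO (triangles). Bard1, Mdc1 and Rnf8 lie below 0 and Brca1 lies above it, with the WT value of Bard1 at -1.95 and its KO value at -1.07.

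The clusters that were not used gave the same direction between cell types. The remaining clusters of Bard1 fell in the same arrays, with mean differences of -0.94 and -1.13 against -1.51 in the cluster used, and the other cluster of Ube2n differed by 0.13 against 0.20. Between genotypes the clusters of Bard1 were less alike. In pachytene spermatocytes KO minus WT was -0.78 in the cluster used, -0.23 in the cluster of second highest mean and -0.35 in the remaining one. The genotypes did not overlap in the first and the last of these, while in the second WT lay at 9.15 and 8.96 and KO at 8.98 and 8.67. With the mean of all clusters of each gene, the same 4 genes passed between cell types. Both Ube2n clusters list the same accessions, and signal from a near-identical copy could not be told apart.

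**Figure D3:**
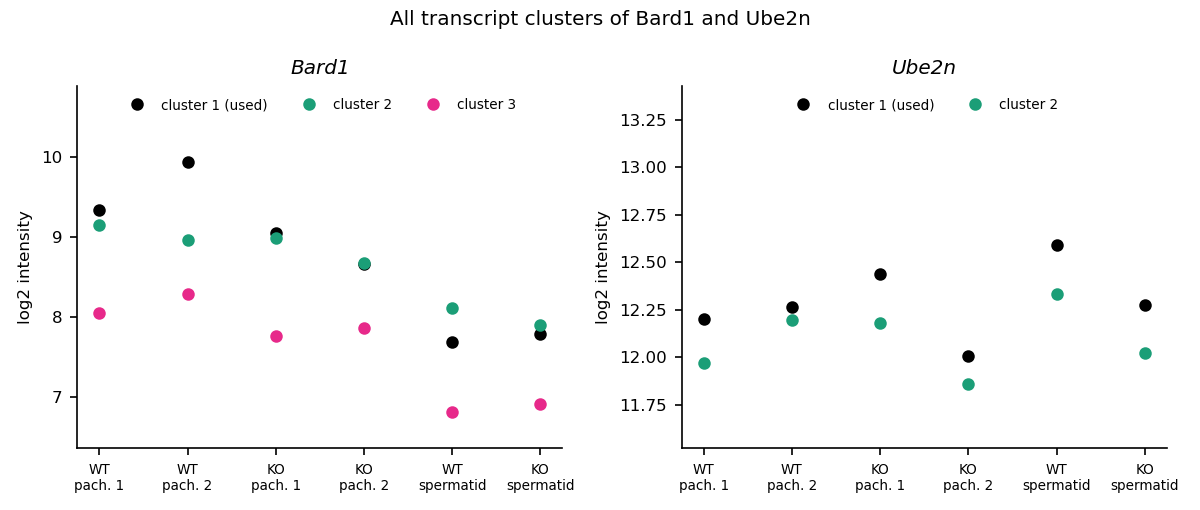
Log2 intensity of every transcript cluster of Bard1 (3 clusters) and Ube2n (2 clusters) on the 6 arrays, with a point per array and cluster. Every Bard1 cluster is lower on the round spermatid arrays, and the difference between WT and KO pachytene arrays is widest in the cluster used, at -0.78.

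The knockout was then compared with wild type in pachytene spermatocytes. No member passed limma with adjustment over all genes (0 of 10, and 0% of all tested genes), and at an unadjusted p under 0.05 there were 2 members, Rnf8 and Bard1, and 431 of all tested genes (2.40%). The same 2 members had WT and KO arrays that did not overlap, both with KO lower, while 25.0% of all tested genes did not overlap and 10.2% did so with KO lower. Bard1 was at -0.78 (SE 0.23, 2 arrays per genotype, 95% interval -1.33 to -0.23), with an adjusted p of 1.0 in limma, and its value ran from -1.08 to -0.49 when each array was left out.

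For the other 8 members the intervals reflect the spread among these arrays, which may be technical. Mdc1, which shares chromosome 17 with Rnf8, differed by -0.02 (95% interval -0.37 to 0.33). Herc2 at 0.01 (interval -0.37 to 0.38), Brca1 at 0.01 (interval -0.45 to 0.47) and Ube2n at -0.01 (interval -0.44 to 0.42) had means that nearly coincided. Rnf168 at -0.10, Uimc1 at -0.03 and Trp53bp1 at -0.21 had intervals of -0.57 to 0.38, -0.55 to 0.48 and -0.68 to 0.26. Abraxas1 had the widest, -0.93 to 0.55 around -0.19. None of these intervals reaches a 2-fold change in either direction, but several are wide. When each pachytene array was left out, the sign of all 8 differences changed at least once.

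Replicates did not deviate evenly. KO pachytene array 2 lay below array 1 in 8 of the 10 members, with a median gap of -0.37. Of all tested genes 41.8% lay lower in array 2, and their median gap was 0.06. Over all clusters KO array 2 had a higher log2 median than KO array 1 (7.77 against 7.63) but a lower upper quartile (9.43 against 9.58). The members had a mean log2 of 9.75 on KO array 1 and 9.45 on KO array 2, near that quartile. The part of signal level in these gaps was not tested. In the WT pair array 2 lay below array 1 in 2 members, with a median gap of 0.22 against 0.00 for all tested genes. Marker sums also differed within the pairs. The summed intensity of the 15 round spermatid markers was 60398 on KO array 1 and 48133 on KO array 2, and that of the 17 pachytene markers was 67581 and 59674. The Leydig sum went the other way, 5276 on KO array 1 and 7440 on KO array 2, as did the peritubular and vessel sum, 2876 and 3351. In the WT pair, where the members lay higher on array 2, the round spermatid sum was 52446 and 50822 and the pachytene sum 64515 and 65961. The part of these cells in the values of the members was not tested.

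In round spermatids there was 1 array per genotype, so the differences have no replicate check and no p-value. No member reached 2-fold (0 of 10, against 0.385% of all tested genes, and 0.351% with KO lower). KO lay lower than WT in 8 of the 10 members, counting Mdc1, whose difference rounds to 0, against 40.9% of all tested genes. The median difference was -0.22 against 0.05. Of the 55 genes of the wider pathway described below, 35 (63.6%) also lay lower in KO. Over all clusters the KO array had a higher log2 median than the WT array (7.695 against 7.624) but a lower upper quartile (9.442 against 9.519). The part of signal level in this lean was not tested. Between the same arrays KO was lower in 0 of 16 Sertoli markers (median 0.23), 1 of 12 peritubular and vessel markers (median 0.30) and 3 of 14 spermatogonial markers (median 0.22), and the part of those cells in the values of the members was not tested. Brca1 had the widest difference at -0.49, followed by Abraxas1 at -0.45, Ube2n at -0.32, Rnf8 at -0.28, Rnf168 at -0.25, Trp53bp1 at -0.19 and Herc2 at -0.05. Mdc1 was at 10.91 on both arrays, and Uimc1 at 0.19 and Bard1 at 0.10 lay higher in KO. For scale, the gap between replicate pachytene arrays of 1 genotype reached 0.86 in Abraxas1 and 0.59 in Bard1.

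**Figure D4:**
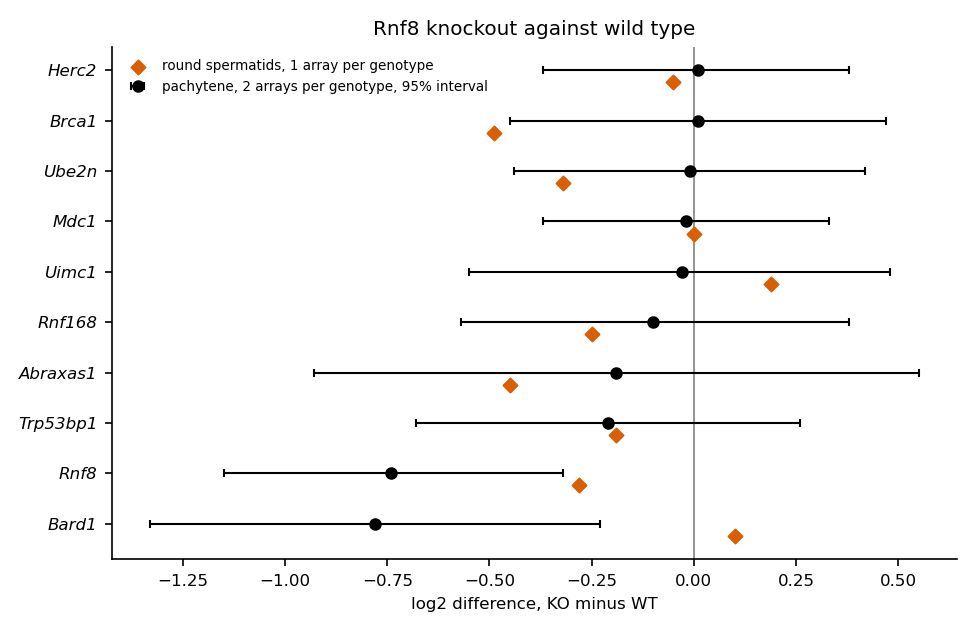
Log2 difference between KO and WT for each gene in pachytene spermatocytes (circles with the 95% interval, 2 arrays per genotype) and in round spermatids (diamonds, 1 array per genotype, no interval). Only the pachytene intervals of Rnf8 and Bard1 exclude 0, before adjustment over all genes, and no diamond reaches a 2-fold difference.

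The interaction of genotype and cell type asks whether the fall or rise after meiosis depended on Rnf8. It called 0 members and 0% of all tested genes in limma, and at an unadjusted p under 0.05 there were 0 members and 130 genes (0.725%). In the cluster used, Bard1 had the largest value, 0.88 (SE 0.41, 95% interval -0.07 to 1.84, adjusted p = 1.0, limma), which is its fall of 1.95 in WT against 1.07 in KO. It was 0.46 with the mean of all Bard1 clusters and ran from 0.59 to 1.18 when each pachytene array was left out. Brca1 was at -0.50 (interval -1.29 to 0.29) and Rnf8 at 0.45 (interval -0.27 to 1.18). Mdc1 had the narrowest interval, -0.59 to 0.62. The comparison lends the lone round spermatid arrays the spread of the pachytene pairs.

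The wider pathway was read from 7 lists with 60 genes, of which 55 were tested. Between cell types 34 of the 55 passed (13 higher and 21 lower in round spermatids), or 61.8% against 34.9% of all tested genes. The median difference was -0.13 against -0.06. These lists were chosen with earlier results of these data known, so the higher share is no test of the pathway. The 55 genes were bright, with a mean log2 of 10.13 to 10.37 per array, against array medians of 7.62 to 7.77. With a filter of log2 7 or more on 2 arrays, 34 again passed, against 41.0% of all tested genes. The count was 17 (30.9%, against 20.0% of all tested genes) when the KO round spermatid array was left out, 13 (23.6% against 15.5%) when the WT one was, and 21 (38.2% against 27.5%) without WT pachytene array 2.

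Among the sensors upstream of RNF8, H2ax fell by 0.87 (SE 0.12) and Rad50, of the break-binding MRN complex, fell by 1.18 (SE 0.12), while the kinase gene Atm rose by 0.52. Their partners Nbn at 0.10 and Mre11a at 0.09 did not pass. H2ax, whose product MDC1 binds once phosphorylated, ranged from 10.25 to 10.49 over the pachytene arrays, with 9.43 and 9.59 in WT and KO round spermatids. Of the other BRCA1-A and BRISC subunits, Abraxas2, the scaffold of the cytoplasmic BRISC complex, rose by 0.37, and Shmt2, a metabolic enzyme that binds BRISC, fell by 0.52. Babam1 at -0.20, Babam2 at -0.01 and the deubiquitinase Brcc3 at 0.03 did not pass.

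Of 6 other conjugating enzymes tested, 3 fell: Ube2e3 by 0.64, Ube2v1, a partner of UBE2N, by 0.60, and Ube2e1 by 0.46. The other UBE2N partner gene, Ube2v2, was at 0.39 (adjusted p = 0.157, limma). Of 10 other ligases tested 4 fell and 3 rose. Rad18, a ligase of post-replication repair, fell by 0.97, Chfr, which has the FHA and RING domains that RNF8 also has, by 0.96, and the polycomb H2A ligase Rnf2 by 0.69. Bmi1, a partner of RNF2, rose by 0.74.

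Of 11 effectors tested that act with 53BP1 or on histone marks, 5 fell and 2 rose. L3mbtl2, a polycomb-like protein ubiquitinated by RNF8, was at 10.62 to 11.10 on the pachytene arrays and 8.88 and 9.04 in round spermatids, a fall of 1.95 (SE 0.12, adjusted p = 1.09e-04, limma). Rif1, which acts with 53BP1 to limit end resection, fell by 1.39 and Nudt16l1, an inhibitor of 53BP1, by 1.11. Paxip1, another partner of 53BP1, rose by 0.67. Among the other BRCA1 partners, Brca2 fell by 1.21 and Topbp1 by 1.06, and the helicase gene Brip1 rose by 0.84, so Bard1, Brca2 and Topbp1 were lower where Brca1 and Brip1 were higher. Of the 14 deubiquitinases and segregase genes 5 rose and 4 fell. Usp51, Usp44 and Usp3, which can remove ubiquitin from H2A, rose by 1.42, 0.89 and 0.56. Psmd14, a deubiquitinase of the proteasome, fell by 1.34.

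Of these 23 named genes, 12 kept their call when each array was left out: Rad50, H2ax, Rad18, Chfr, L3mbtl2, Rif1, Nudt16l1, Brca2, Topbp1, Usp51, Psmd14 and Usp44. The other 11 lost it without the WT round spermatid array: Atm, Shmt2, Abraxas2, Ube2e3, Ube2v1, Ube2e1, Bmi1, Rnf2, Paxip1, Brip1 and Usp3. That fit gives the difference within KO. Atm, Shmt2, Abraxas2, Ube2e3, Ube2e1, Rnf2 and Usp3 also lost their call without the KO round spermatid array or without WT pachytene array 2. Atm, Abraxas2 and Usp3 lost it without WT pachytene array 1 as well. With all arrays kept, Abraxas2 lost its call with the replicate block (adjusted p = 0.0883, limma) and with 4 group means (0.0654), and Ube2e1 with 4 group means (0.0698). In pachytene spermatocytes 0 of the 55 genes passed between genotypes, and 0 were under an unadjusted p of 0.05 in limma. The widest differences per list were Nbn at -0.11, Shmt2 at -0.34, Ube2v2 at -0.34, Rad18 at 0.18, L3mbtl2 at 0.28, Brip1 at 0.18 and Usp51 at -0.26. Over both cell types they were Nbn at -0.16, Shmt2 at -0.23, Ube2v2 at -0.31, Bmi1 at -0.17, L3mbtl2 at 0.24, Palb2 at -0.12 and Usp51 at -0.31, with 0 of 55 past the test and 0 under an unadjusted p of 0.05. In round spermatids 0 of the 55 reached 2-fold, with Rad50 at -0.28, Brcc3 at 0.21, Ube2e2 at -0.40, Bmi1 at -0.29, Kdm4a at -0.33, Palb2 at -0.25 and Usp51 at -0.41 as the widest.

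**Figure D5:**
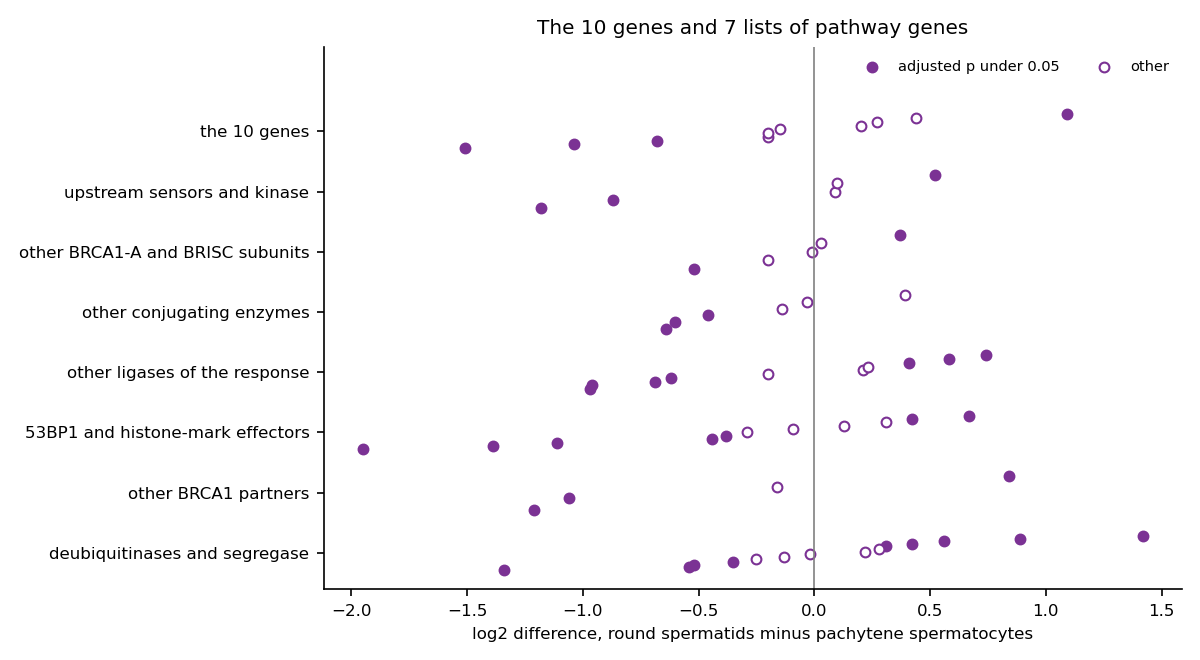
Log2 difference between round spermatids and pachytene spermatocytes over both genotypes for the 10 genes and for the tested genes of 7 pathway lists, with a point per gene, filled where the adjusted p is under 0.05. Filled points stand on both sides of 0 in every list except the other conjugating enzymes, from L3mbtl2 at -1.95 to Usp51 at 1.42.

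The genes whose pattern was most like that of Rnf8 over the 6 arrays, by the distance between log2 profiles each centred on its own mean, were Srd5a3 (distance 0.27, Pearson's r 0.98), Npas3 (0.28, r 0.97) and Akap11 (0.38, r 0.96). Srd5a3, a polyprenol reductase gene, was at 9.67 and 9.87 on the WT pachytene, 9.19 and 9.20 on the KO pachytene, and 9.09 and 8.67 on the WT and KO round spermatid arrays. The arrays share cell type and genotype, so such likeness describes these 6 arrays. Of the other 9 members, Rnf168 was nearest to Rnf8 at a distance of 0.86, which is rank 1487 among the other tested genes. Bard1 had the highest r with Rnf8, 0.89, and Herc2 the lowest, -0.71.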

How the data were processed

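The submitters' processing notes name Affymetrix Expression Console 1.1 and RMA as the tools. The authors deposited 1 linear intensity per cluster and array. The sources used here do not give its further options or a genome build. The log2 of each deposited intensity was taken. The platform annotation gave 1 symbol to 21789 of 35556 clusters. RefSeq tables (GRCm38.p6) gave names, chromosomes and start-site windows. One cluster per gene (highest mean) was kept where log2 reached 6 on at least 1 array, and the Rnf8 cluster was added although it lists 2 symbols. Groups came from the sample titles, whose numbering has 2 further round spermatid arrays, not analysed here.

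Tests used limma 3.58.1 in R 4.3.3 (lmFit and eBayes, Benjamini-Hochberg over 17926 genes, threshold 0.05). The fit with both genotype and cell type as terms has 3 residual degrees of freedom. A fit of 4 group means, with 2, gave KO against WT in pachytene, the interaction and the within-genotype differences. Differences are on the log2 scale, RS minus PS or KO minus WT, where PS is pachytene spermatocytes and RS round spermatids. The number of arrays limits the precision. The code was tested on simulated data. Named genes are the 10 members, up to 4 called genes per list by size (otherwise the list's widest difference), and the 3 genes nearest to Rnf8, leaving out Rik, Gm and receptor names. The members and lists were chosen with earlier results of these data known. The 5 list genes not tested are not reported here. Alternatives were a second quantile normalization, other filters, cluster means, another prior, a replicate block, 4 group means and leaving out each array.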

Additional observations from a re-analysis of the deposited data

How the results depend on the processing

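Between cell types the count of the 10 genes called was 4 or 5 under every setting that kept all arrays, with Bard1, Brca1, Mdc1 and Rnf8 in each. With each array left out it was 2 to 7, genes called overall were 2786 to 8850, and pathway genes called 13 to 39. Pathway genes called with all arrays kept were 34 in the main analysis, 29 with the replicate block and 26 with 4 group means. For KO against WT no pathway gene passed under any setting, and no member passed except under the crossed numbers given next. Genes called overall were 0 to 18 over both cell types and 0 to 2 in pachytene with each array left out, and 2 over both cell types with a trended and robust prior. Under the replicate block 2 genes passed over both cell types, 43 in pachytene and 1 for the interaction. In its pachytene fit the SEs of the 10 genes lay between 0.217 (Mdc1) and 0.227 (Abraxas1). Pachytene calls under that block thus rest little on the replicate spread of each gene. Nothing in the labels says that the replicate numbers pair the arrays, so they were not taken to do so. Deviations of same-numbered pachytene arrays correlated at -0.227 over genes. That value rests on the only pachytene pair of each genotype and cannot decide whether the numbers pair arrays. With the block crossed between genotypes, chosen after seeing the data, 89 of all tested genes and 2 members (Rnf8 and Bard1) passed in pachytene. In that fit the 10 genes all had the same SE, 0.189. Abraxas1 and Mdc1 shared it, although their KO pachytene pairs differed by 0.86 and 0.12. These calls thus do not rest on the replicate spread of each gene, and no difference between genotypes was concluded from them. In round spermatids 69 genes differed 2-fold, and 0 passed a limma fit lending the pachytene spread. Leaving out a round spermatid array gives no interaction and no difference between those arrays.

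Some uncalled differences changed sign between settings, and not all of them were near 0. With a second quantile normalization KO minus WT over both cell types was -0.00387 for Uimc1 and 0.015 for Herc2, that of Brca1 in pachytene -0.0575, and the Herc2 interaction 0.00188. With cluster means Nbn over both cell types was 0.000398. With each array left out, KO minus WT in pachytene ran from -0.369 to 0.174 for Rnf168, -0.0769 to 0.0417 for Mdc1, -0.227 to 0.204 for Ube2n, -0.297 to 0.229 for Uimc1, -0.238 to 0.259 for Brca1, -0.619 to 0.242 for Abraxas1, -0.473 to 0.0576 for Trp53bp1, -0.121 to 0.131 for Herc2 and -0.715 to 0.191 for Usp51. Over both cell types it ran from -0.044 to 0.0237 for Mdc1, -0.0864 to 0.215 for Uimc1, -0.0917 to 0.0524 for Herc2 and -0.287 to 0.0117 for Palb2. Without a round spermatid array this fit gives the pachytene difference alone. Brca1 was above 0 only there, at 0.0109, and ran from -0.345 to -0.0613 when a pachytene array was left out. The interaction ran from -0.423 to 0.121 for Rnf168, -0.0418 to 0.0767 for Mdc1, -0.0346 to 0.492 for Uimc1, -0.695 to 0.167 for Abraxas1, -0.245 to 0.286 for Trp53bp1 and -0.184 to 0.0677 for Herc2. Between cell types Abraxas1 ran from -0.365 to 0.00376. The cause of these changes was not tested beyond the arrays left out.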
